A study of Homo sapiens with 4 samples.

Results

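Some of the cassette exons quantified in these cells have coordinates that the GENCODE release 29 annotation does not hold. A skipped exon was taken as unannotated when its chromosome, start, end and strand together matched no GENCODE exon. By that rule 1489 of the 33165 skipped exons listed for both cell lines were unannotated, or 4.49%, and they lay in 1738 events. The lines were MDA-LM2, the highly lung-metastatic derivative, and parental MDA-MB-231, the triple-negative breast cancer line from which it was obtained. Both grew in the same serum-supplemented medium with no treatment. The labels name 2 samples of each line, but the deposited tables hold 1 set of values per line, taken here as pooled over them. No difference between the lines therefore has a replicate error or a p-value. LM2 is 1 derivative of 1 parental line, so a difference between them and a difference in metastatic capacity cannot be told apart.

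An internal exon is recognised by an acceptor, the 3′ splice site just upstream of it, where the intron ends in AG, and by a donor, the 5′ splice site just downstream, where the next intron starts with GT or, less often, GC. An exon can be missing from an annotation because 1 of these sites has moved along a known exon, because known sites are paired in a new way, or because the exon lies in sequence annotated as intron. Exons of the last kind are often called cryptic exons, and many carry a stop codon or shift the reading frame.

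Of the unannotated exons, 694 (46.6%) had no annotated exon under them. On their own strand, 663 exons (44.5%) lay inside a gene and overlapped no exon, and a further 31 lay in no gene and overlapped none. An acceptor or donor is called annotated here where any GENCODE exon has that start or end, so ends of first and last exons count too. In 386 exons (25.9%) the donor was annotated and the acceptor was not, and in 287 (19.3%) the acceptor was annotated and the donor was not. A further 74 had an annotated start and an annotated end that GENCODE never holds in 1 exon. Another 48 overlapped an exon without sharing an end. The 1489 exons touched 1059 genes, of which 762 held 1 such exon. GSN, which encodes the actin-severing protein gelsolin, held the most, with 11. RABGEF1, a RAB5 exchange factor, and WASHC2C, a subunit of the endosomal WASH complex with near-identical gene copies, held 9 each. The exons are not independent of each other, since 174 of them overlapped another unannotated exon on the same strand.

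Many moved splice sites sat within a few bases of the annotated ones. The distance to the nearest annotated version sharing the other end had a median of 19.5 nt for moved acceptors and 46.0 nt for moved donors. Of the 386 moved acceptors, 172 (44.6%) lay within 12 nt of the annotated one, against 75 of 287 moved donors (26.1%). The most frequent single shift was an exon that starts 3 nt later than the annotated version, seen 36 times. A start 4 nt later was seen 23 times and a start 3 nt earlier 10 times. For donors the most frequent shifts were 4 nt, with 15 exons shorter and 8 longer by that length. The shift was a multiple of 3, which keeps the reading frame in coding sequence, in 38.9% of moved acceptors and 34.5% of moved donors. Of the 150 such acceptor shifts, 46 were of 3 nt. Only 202 of the 386 exons with a moved acceptor and 156 of the 287 with a moved donor overlapped annotated coding sequence.

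**Figure D1:**
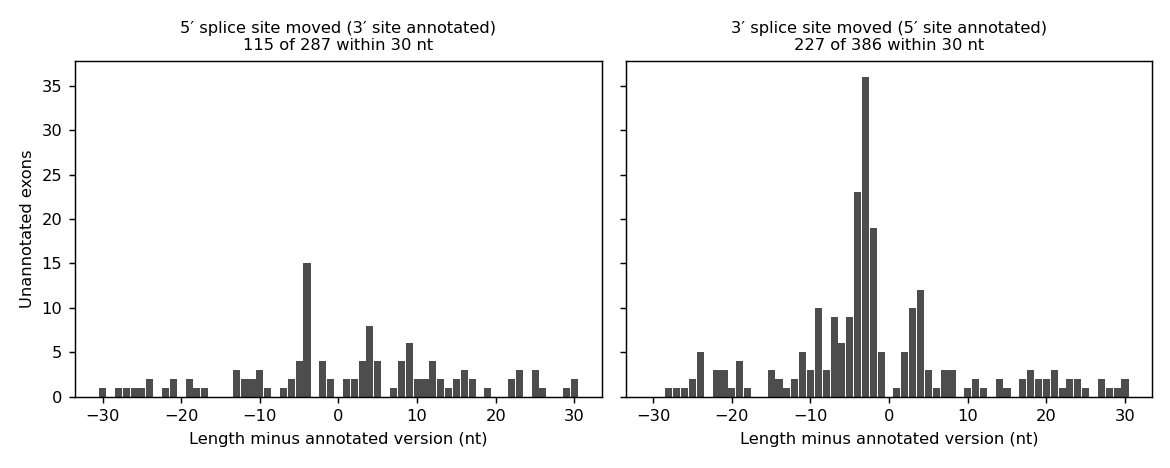
Number of unannotated exons (vertical axis) by their length minus that of the nearest annotated version in nt (horizontal axis), for moved donors on the left and moved acceptors on the right. The tallest bar is at -3 nt for acceptors (36 exons), and for donors it is at -4 nt (15 exons).

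In a tandem acceptor a second AG follows the first, and an exon that starts 3 nt late could come from the downstream AG. The AG before the annotated exon was not looked up for these exons, and which AG the transcripts used was not tested. The first 18 bases of the annotated exon are shown for 4 exons that start 3 nt late, in hg38, read from GENCODE transcripts. The capitals mark the AG that ends the bases left out, so the unannotated exon starts right after them.

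PCNP (chr3:101585437-101585511, plus strand): aAGcctaaagaaactgtt

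LIN9 (chr1:226297719-226297813, minus strand): aAGgaagcttatctaaca

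ARFRP1 (chr20:63701830-63701898, minus strand): aAGgtggtgaccagcgag

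FAM207A (chr21:44973197-44973265, plus strand): cAGggagagcaacaagcc

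Of the exons that start 3 nt late, all 34 that were read in this way had AG in that place. These are also the 2 bases just before the unannotated exon, where AG stood in 98.6% of the 289 exons with a new acceptor that could be read. The count was thus nearly fixed in advance. It shows no enrichment over the 6.09% of annotated skipped exons that have AG as bases 2 and 3. Inclusion level is the fraction, from 0 to 1, that MISO gives to the transcript form with the exon. Of these 34 exons, 18 could be compared. Among the 18, 11 had levels within 0.05 of each other in the 2 lines, and differences, LM2 minus parental, ranged over -0.20 to 0.27. The ends of that range were OAZ2, another antizyme gene, at 0.67 in LM2 and 0.87 in parental cells, and EXTL2, a glycosyltransferase gene, at 0.50 in LM2 and 0.23 in parental cells. OAZ2 had 32 inclusion reads, which fit only the form with the exon, in LM2 and 74 in parental cells. It had 0 exclusion reads, which fit only the form without the exon, in either line. EXTL2 had 22 inclusion reads and 1 exclusion read in LM2, beside 11 and 0 in parental cells. These reads alone thus do not show the 2 differences in level. Neither exon met the call rule given below, and the 4 genes shown were among the 11. PCNP, which encodes a nuclear protein rich in PEST sequence, had an inclusion level of 0.98 in LM2 and 0.99 in parental cells. LIN9, a subunit of the DREAM complex that controls cell-cycle genes, was at 0.99 in LM2 and 0.98 in parental cells. ARFRP1, an ARF-like GTPase of the trans-Golgi, was at 0.94 in LM2 and 0.89 in parental cells, and FAM207A at 0.80 in LM2 and 0.77 in parental cells. The annotated versions, 3 nt longer, were at 0.99 in each line for PCNP and at 0.98 in LM2 and 0.99 in parental cells for LIN9. Those of ARFRP1 and FAM207A were at 0.92 and 0.91 in LM2 and at 0.89 and 0.93 in parental cells. Such levels do not tell how often each of the 2 acceptors was used.

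A larger share of new donors than of annotated ones held GC, which was counted and not tested. The bases next to an exon could be read only where another annotated exon covers them. Among exons with a new donor, 174 could be read, of which 143 (82.2%) were followed by GT and 28 (16.1%) by GC. Among annotated skipped exons read in the same way, 97.0% of 8068 were followed by GT and 2.74% by GC. New acceptors were preceded by AG in 285 of 289 exons (98.6%), against 99.7% of 9015 annotated exons. The fifth base after the exon, a G in the usual donor, was G in 65.9% of 135 new GT donors and in 17 of 21 new GC donors. In annotated exons it was G in 69.3% of GT donors and 92.3% of GC donors. Upstream of new acceptors the share of C or T over 18 bases had a median of 66.7% (191 exons), against 72.2% before annotated acceptors (8166 exons).

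Donor windows of 24 bases follow, with 12 bases of the unannotated exon, the first 2 bases after it in capitals and then 10 more. They show a GC donor in NCEH1, SSR4 and SUN1 and a GT donor in ITGA6, CD40, LARP1 and SRSF10. The deposited levels of CD40, LARP1 and SRSF10 in the 2 lines are described below.

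NCEH1 (chr3:172647896-172648114, minus strand): ggctgggccttgGCaagtgcaagt

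SSR4 (chrX:153795663-153795856, plus strand): gagaaggctaagGCaaggtccttt

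SUN1 (chr7:849923-850023, plus strand): tggcacatctggGCatgtgcaggt

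ITGA6 (chr2:172489485-172489613, plus strand): ggattggaaaagGTaacttgtgag

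CD40 (chr20:46126640-46126741, plus strand): aagcctaggaagGTgggaactgaa

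LARP1 (chr5:154793800-154793901, plus strand): atgagacatcgaGTgtgaagagtg

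SRSF10 (chr1:23971338-23971439, minus strand): atcacgttctagGTctgcatctca

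Exons with a new GC donor had a median inclusion level of 0.33 in LM2 and 0.31 in parental cells (21 exons). Those with a new GT donor had a median of 0.45 in LM2 and 0.50 in parental cells (80 exons). NCEH1, a neutral cholesterol ester hydrolase, had its 219-nt exon at 1.0 in both lines with 2940 inclusion reads in LM2 and 1707 in the parental line. The annotated 229-nt version of the NCEH1 exon, 10 nt longer, was also at 1.0 in both lines with more inclusion reads, 3113 in LM2 and 1798 in the parental line, so these levels do not tell the 2 donors apart. SSR4, a subunit of the translocon-associated complex, was at 0.07 in both lines. SUN1, a nuclear envelope protein that links to the cytoskeleton, was at 0.23 in LM2 and 0.21 in parental cells.

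Inclusion was compared where an exon had at least 10 reads in each line that fit only the form with the exon or only the form without it, called informative reads here. That left 852 unannotated exons (57.2% of them) and 20772 annotated ones (65.6%). Of the 637 unannotated exons not compared, 223 had 0 informative reads in at least 1 line. Just inside the minimum, 46 exons had 10 or 11 reads in the poorer library, and just outside it 45 had 8 or 9. Over all events the LM2 table held 4701744 inclusion and 955034 exclusion reads, and the parental table held 5529885 and 1101330. Unannotated exons had a median of 48 informative reads in LM2 and 62 in the parental line, against 69 and 88 for annotated exons in the same order of lines. The deposited interval of a level had a median width of 0.12 in LM2 and 0.10 in parental cells.

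Unannotated exons were mostly skipped in both lines. Their median inclusion level was 0.17 in LM2 (quartiles 0.04 and 0.72) and 0.15 in parental cells (0.04 and 0.71). Annotated skipped exons had a median of 0.77 in each line. In both lines 310 unannotated exons (36.4%) were below 0.1, against 22.5% of annotated exons, and 112 (13.1%) were above 0.9, against 31.7%. A level computed from informative reads alone, with inclusion reads divided by 2, gave higher medians of 0.313 in LM2 and 0.324 in parental cells, against 0.967 and 0.966 for annotated exons. The division by 2 takes no account of exon length, although a read within a long exon also counts as an inclusion read. This level therefore runs higher for longer exons. The skipping junction itself was annotated for 90.6% of unannotated and 95.6% of annotated exons.

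The kind of exon went with its level. The 336 intronic exons had a median of 0.05 in each line, and 61.9% of them were below 0.1 in both lines. Exons that overlapped an annotated one without a shared end had a median of 0.12 in LM2 and 0.09 in parental cells (29 exons). Exons with a new donor had a median of 0.33 in each line (180 exons), and those with a new acceptor 0.54 in LM2 and 0.47 in parental cells (248 exons). New pairings of annotated sites stood highest, at 0.70 in LM2 and 0.63 in parental cells (54 exons). By informative reads alone the medians were 0.80 in LM2 and 0.78 in parental cells for new donors, and 0.91 and 0.93 for new acceptors. New pairings were at 0.99 in each line by that measure, and intronic exons at 0.05 in LM2 and 0.06 in parental cells. How far exons with a moved site were skipped thus depends on the measure. Exons that overlapped coding sequence had a median of 0.75 in LM2 and 0.74 in parental cells (286 exons). Exons of 1 gene could also differ widely: the 5 compared in GSN ranged over 0.02 to 0.98 in LM2 and 0.04 to 0.99 in the parental line.

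**Figure D2:**
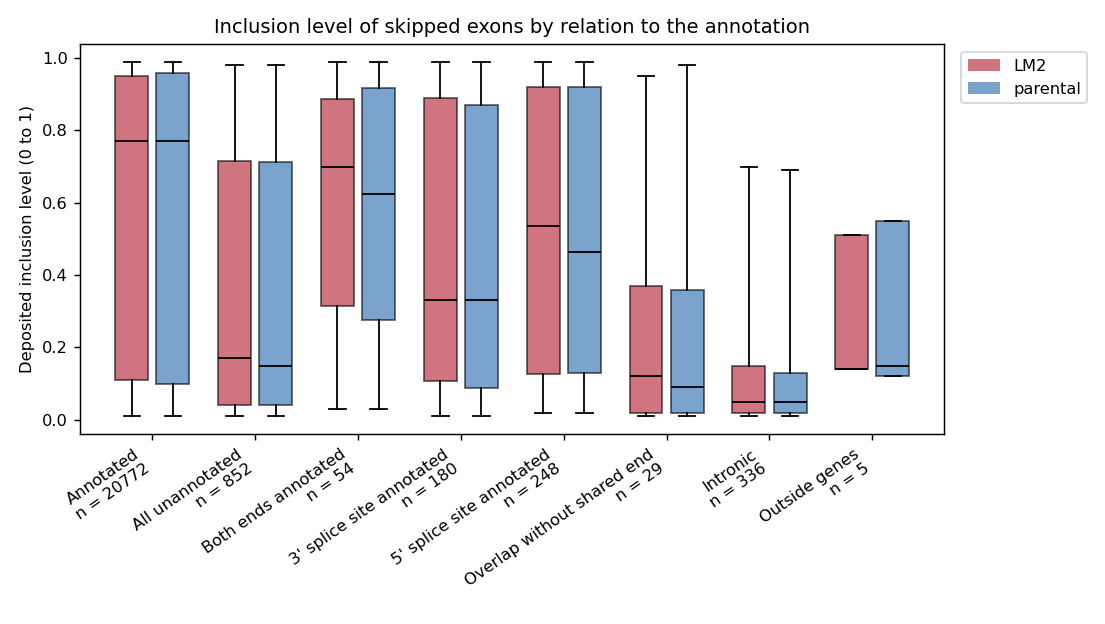
Deposited inclusion level (vertical axis, 0 to 1) in LM2 (red) and parental cells (blue) for annotated skipped exons, all unannotated ones and the 6 kinds of unannotated exon, where an annotated 3' splice site means a new donor and an annotated 5' splice site a new acceptor. Boxes span the quartiles with the median as a line and whiskers reach the 5th and 95th percentiles of exons; intronic exons have a median of 0.05 in each line, against 0.77 for annotated exons.

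Many unannotated exons shared most of their bases with an annotated one. Of the 852 exons compared, 326 lay wholly inside a longer annotated exon, so a read within the body fits that longer exon as well; the part of this in the levels was not tested. Their median level was 0.58 in LM2 and 0.50 in parental cells, against 0.09 in each line for the other 526. For 266 exons with 1 moved end the nearest annotated version was also compared, and in 258 of these pairs the exclusion reads were the same number in each line. The unannotated version was the lower of the pair in both lines in 146 pairs. Median levels in LM2 were 0.67 for the unannotated and 0.81 for the annotated version, and in parental cells 0.59 and 0.80. The unannotated version had more inclusion reads in both lines in 36 pairs, of which 35 were pairs in which it was the longer one.

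**Figure D3:**
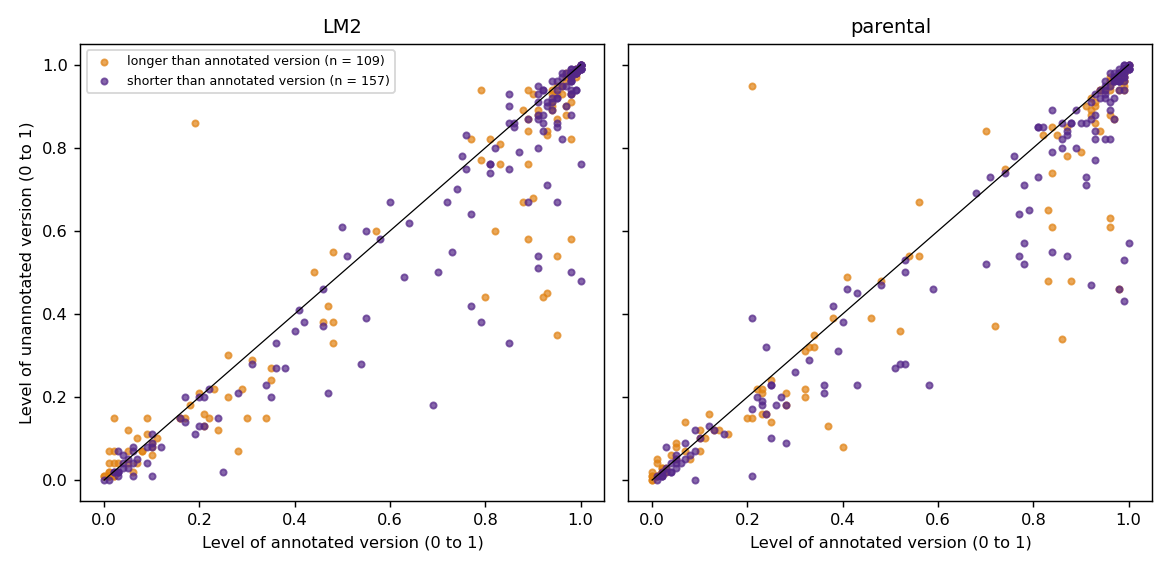
Inclusion level of the unannotated version (vertical axis) against that of the nearest annotated version with 1 shared end (horizontal axis), both from 0 to 1, in LM2 on the left and parental cells on the right. Each point is 1 of 266 pairs, orange where the unannotated version is longer (109) and purple where it is shorter (157); the line marks equal levels, and more points lie below it than above it.

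The unannotated version was the higher one in 54 pairs in LM2 and in 46 in parental cells. In IL6ST, which encodes the signalling receptor gp130, an 881-nt version had 246 inclusion reads in LM2 and 290 in the parental line. The annotated 85-nt version with the same acceptor had 5 in LM2 and 12 in parental cells. These counts are not corrected for the difference in length. The level of the 881-nt version was 0.07 in LM2 and 0.05 in parental cells, with 205 exclusion reads in LM2 and 406 in the parental line. The 85-nt version was at 0.01 in each line, with the same numbers of exclusion reads. In POMT1, a protein O-mannosyltransferase, a 461-nt version was at 0.93 in LM2 and 0.75 in parental cells, beside 0.90 and 0.74 for the annotated 152-nt version. A 96-nt version of an exon in AMZ2, a metalloprotease gene, was at 0.86 in LM2 and 0.95 in parental cells, where the annotated 66-nt version was at 0.19 and 0.21. The unannotated AMZ2 version nevertheless had fewer inclusion reads, 10 against 54 in LM2 and 26 against 72 in parental cells. These 3 pairs were chosen after their values were seen.

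The best covered unannotated exons were almost fully included in both lines. HNRNPA3, an RNA-binding protein of the hnRNP A/B family, had a 2569-nt exon at 1.0 in each line, with 8573 inclusion reads and 1 exclusion read in LM2 and 8448 and 0 in parental cells. It overlaps annotated untranslated and no coding sequence, and lies inside a longer annotated exon. PNISR, a serine/arginine-rich splicing-related protein, had a 1087-nt exon, also inside a longer annotated one, at 1.0 in each line. ITGA6, the laminin receptor subunit integrin alpha 6, had a 129-nt exon 45 nt shorter than the annotated one, at 1.0 in LM2 and 0.99 in parental cells. Its 2555 inclusion reads in LM2 and 1411 in the parental line stood beside 4871 and 2698 for the 174-nt annotated version. That version was at 1.0 in each line, so, as for NCEH1, the levels do not tell the 2 donors apart. Of the 5 best covered exons only the 344-nt exon of PCNP touched no annotated exon. It had 1886 inclusion and 20 exclusion reads in LM2, beside 2246 and 27 in the parental line, and levels of 0.97 in LM2 and 0.96 in parental cells.

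Other exons in annotated introns were used at a high level. Of the 341 exons compared that overlapped no annotated exon, 28 were above 0.5 in both lines. An 8-nt exon in an intron of PITPNA, a phosphatidylinositol transfer protein (chr17:1541762-1541769, minus strand), was at 0.96 (interval 0.91 to 0.98) in LM2 and 0.88 (0.82 to 0.93) in the parental line. It had 137 inclusion and 5 exclusion reads in LM2, beside 136 and 16 in the parental line. It is the shortest of the 22 exons of at most 30 nt that could be compared. The next shortest, of 12 nt, had 0 inclusion reads in either line. That in PTPRF, a receptor tyrosine phosphatase, was at 0.04 in LM2 and 0.02 in parental cells. That in ARHGEF7, an exchange factor for RAC and CDC42, was at 0.07 in LM2 and 0.08 in parental cells. A 15-nt exon in MASTL, the mitotic kinase Greatwall, was at 0.02 in each line and also had 0 inclusion reads.

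LPAR1, a receptor for lysophosphatidic acid, held 5 unannotated exons, of which 4 could be compared. Its 143-nt intronic exon was at 0.65 (0.58 to 0.72) in LM2 and 0.69 (0.57 to 0.79) in the parental line, and its 108-nt intronic exon at 0.67 (0.49 to 0.82) in LM2 and 0.52 (0.29 to 0.75) in the parental line. FARSB, a subunit of phenylalanyl-tRNA synthetase, had a 196-nt intronic exon at 0.52 in LM2 and 0.63 in parental cells. The intronic 537-nt exon of ZNF131, a zinc finger protein, was at 0.28 in LM2 and 0.32 in parental cells. A 109-nt intronic exon of IFIT1, an interferon-induced antiviral protein, was at 0.12 in LM2 and 0.11 in parental cells, with 390 exclusion reads in LM2 and 214 in the parental line. The intervals of the 2 lines overlapped for each of these exons. Of the 5 exons compared in no gene, 3 lay within 7 kb of each other on chromosome 2, at 0.92, 0.51 and 0.14 in LM2 and 0.95, 0.55 and 0.12 in parental cells. The other 2 lay on chromosome 5 and were at 0.14 and 0.12 in LM2 and 0.15 and 0.07 in parental cells.

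Levels in LM2 and parental cells were close for most unannotated exons. The median difference, LM2 minus parental, was 0 with quartiles of -0.02 and 0.02, as it was for annotated exons, and 579 of the 852 differed by less than 0.05. An exon was called where the authors' deposited table gave it a Bayes factor, the odds of a difference over none, of 10 or more and the 2 levels lay 0.2 or more apart. Of the 852 exons 8 were higher in LM2 by this rule, or 0.939%, against 0.846% of all 21624 exons compared. The 2 lower exons were 0.235% of the unannotated ones, against 0.254% of all. Both shares stand near those of all exons. With a difference of at least 0.1 there were 10 higher and 3 lower exons, against 1.26% higher and 0.458% lower over all exons. None of the 341 exons clear of annotated exons was called at either size of difference. Over all exons, 1.1% were called either way at 0.2 and 1.72% at 0.1. Of the 341, 61.0% were below 0.1 in both lines, where a fall of either size is not possible. No conclusion on this kind of exon is drawn from the lack of calls. All 10 called exons overlapped an annotated exon, and 7 of them lay wholly inside one. The deposited intervals of the 2 lines did not overlap for any of the 10. The exact 95% intervals of the share of inclusion reads, which cover counting error only, did not overlap for ATG13, CD40, NT5C2 and both CEP83 exons, and overlapped for ZNF148, LARP1, OAZ1, WDR20 and VPS37A.

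**Figure D4:**
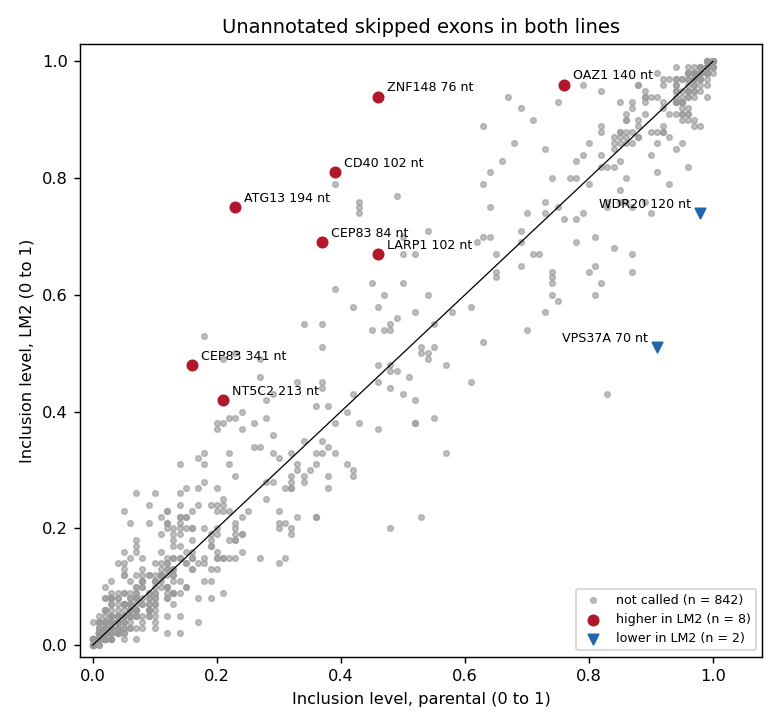
Inclusion level in LM2 (vertical axis) against parental cells (horizontal axis), both from 0 to 1, for the 852 unannotated exons compared, with 8 called higher in LM2 as red circles, 2 called lower as blue triangles and the others in grey. Most points lie along the line of equal levels, and ATG13 stands farthest above it among the called exons.

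In 5 of the 8 higher exons the level from informative reads alone was also higher in LM2 by at least 0.1. Reads went the same way by that much in 47 of 175 annotated exons called higher and 36 of 53 called lower. The difference between these shares was not tested. ATG13, an adaptor in the ULK1 kinase complex of autophagy, had a 194-nt exon (chr11:46629907-46630100, plus strand) that joins an annotated acceptor and donor and overlaps annotated untranslated sequence. It had 26 inclusion reads and 1 exclusion read in LM2, beside 12 and 8 in the parental line, and levels of 0.75 (interval 0.51 to 0.95) in LM2 and 0.23 (0.11 to 0.39) in the parental line. CEP83, a protein of centriole distal appendages needed for cilium formation, had 2 neighbouring unannotated exons that were both higher. The 84-nt exon (chr12:94402251-94402334, minus strand) was at 0.69 (0.53 to 0.85) in LM2 and 0.37 (0.28 to 0.47) in the parental line. The 341-nt exon (chr12:94402551-94402891, minus strand) was at 0.48 (0.32 to 0.65) in LM2 and 0.16 (0.11 to 0.21) in the parental line. Each had 5 exclusion reads in LM2 and 48 in the parental line, while inclusion reads were 34 and 49 in LM2 against 57 and 51 in parental cells. The 2 CEP83 exons thus have equal numbers of skipping reads and are not separate observations of skipping.

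CD40, a receptor of the tumour necrosis factor receptor family, had a 102-nt exon that extends the annotated 62-nt coding exon by 40 nt. The added bases are in capitals, and they begin with the GT of the annotated donor.

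CD40 (chr20:46126640-46126741, plus strand): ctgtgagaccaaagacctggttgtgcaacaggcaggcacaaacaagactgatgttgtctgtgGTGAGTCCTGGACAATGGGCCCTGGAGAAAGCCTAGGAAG

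This CD40 exon was at 0.81 (0.52 to 0.95) in LM2 and 0.39 (0.29 to 0.51) in the parental line. It had 15 inclusion and 0 exclusion reads in LM2, beside 41 and 22 in the parental line. The annotated 62-nt version moved alike, at 0.83 in LM2 and 0.38 in parental cells, with 10 inclusion reads in LM2 and 29 in the parental line. NT5C2, a cytosolic purine nucleotidase, had a 213-nt exon 21 nt longer at its start than the annotated one (chr10:103100752-103100964, minus strand). It was at 0.42 (0.33 to 0.52) in LM2 and 0.21 (0.15 to 0.28) in the parental line. It had 87 inclusion and 30 exclusion reads in LM2, beside 50 and 45 in the parental line. Inclusion reads made up 74.4% in LM2 (exact 95% interval 65.5 to 82.0, counting error only) and 52.6% (42.1 to 63.0) in parental cells. The annotated 192-nt version was at 0.47 in LM2 and 0.28 in parental cells. Of the 6 unannotated exons of NT5C2, all compared, this was the 1 called.

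In the other 3 higher exons that level was not higher in LM2, and in parental cells each stood above 0.9 by reads alone, where a rise of 0.1 is not possible. OAZ1, which encodes the polyamine regulator antizyme and overlaps the gene AC005258.1, had a 140-nt exon at 0.96 (0.93 to 0.99) in LM2 and 0.76 (0.69 to 0.83) in the parental line. It had 727 inclusion and 3 exclusion reads in LM2, beside 602 and 2 in the parental line. LARP1, which binds mRNAs of the translation machinery, had a 102-nt exon, 21 nt shorter than the annotated one, at 0.67 (0.60 to 0.74) in LM2 and 0.46 (0.40 to 0.52) in the parental line. Its exclusion reads were 7 in LM2 and 3 in parental cells. The annotated 123-nt version was at 0.60 in LM2 and 0.41 in parental cells. ZNF148, a zinc finger transcription factor, had a 76-nt exon in untranslated sequence at 0.94 (0.83 to 0.99) in LM2 and 0.46 (0.32 to 0.66) in the parental line, with 0 exclusion reads in either. There the annotated 81-nt version was at 0.99 in LM2 and 0.98 in parental cells, with 167 inclusion reads in LM2 and 114 in the parental line against 52 and 29 for the 76-nt version.

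**Figure D5:**
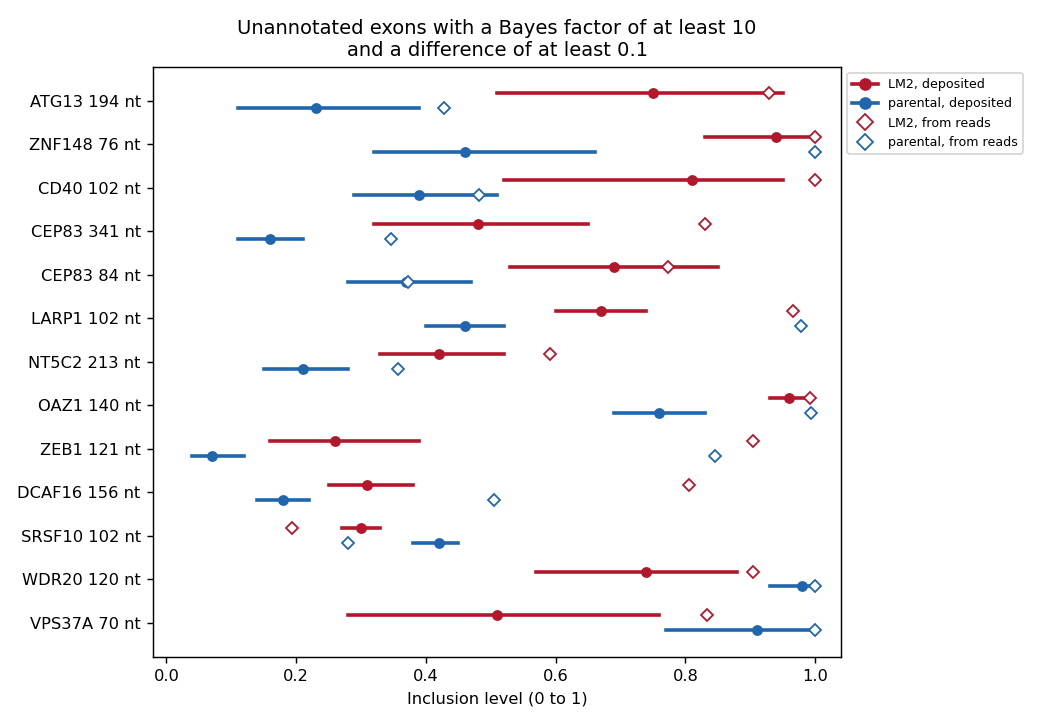
Inclusion level (horizontal axis, 0 to 1) of the 13 unannotated exons called with levels at least 0.1 apart, in LM2 (red) and parental cells (blue). Filled circles and bars are the deposited level and its interval, and open diamonds are the level from informative reads alone; the diamonds of LARP1, OAZ1 and ZNF148 lie together near 1 while the circles are apart.

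WDR20, a WD-repeat cofactor of deubiquitinases, held 1 of the 2 lower exons, a 120-nt exon that lacks the first 72 bases of the annotated 192-nt coding exon. Those 72 bases, a whole number of codons, are in capitals and end in AG.

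WDR20 (chr14:102139981-102140172, plus strand): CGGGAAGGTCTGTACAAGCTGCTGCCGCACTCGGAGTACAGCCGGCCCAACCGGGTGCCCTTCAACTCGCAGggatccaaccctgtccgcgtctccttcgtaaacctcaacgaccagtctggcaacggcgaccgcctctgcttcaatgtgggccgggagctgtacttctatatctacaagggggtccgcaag

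This WDR20 exon was at 0.74 (0.57 to 0.88) in LM2 and 0.98 (0.93 to 1.0) in the parental line, with 76 inclusion and 4 exclusion reads in LM2, beside 141 and 0 in the parental line. The read-based levels, 0.905 in LM2 and 1.0 in parental cells, differed by just under 0.1. Inclusion reads made up 95% in LM2 (exact 95% interval 87.7 to 98.6) and 100% (97.4 to 100) in parental cells.

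The other lower exon was in VPS37A, a subunit of the ESCRT-I complex that sorts membrane proteins for degradation. This 70-nt exon, 5 nt shorter than the annotated one, was at 0.51 (0.28 to 0.76) in LM2 and 0.91 (0.77 to 0.99) in the parental line. It rested on 10 inclusion reads and 1 exclusion read in LM2, beside 37 and 0 in the parental line. Inclusion reads made up 90.9% in LM2 (exact 95% interval 58.7 to 99.8) and 100% (90.5 to 100) in parental cells. The annotated 75-nt version was at 0.91 in LM2 and 0.96 in parental cells.

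Between a difference of 0.1 and 0.2 stood 3 more exons with a Bayes factor of at least 10. SRSF10, a splicing regulator of the SR family, had a 102-nt exon (chr1:23971338-23971439, minus strand) inside a longer annotated exon, at 0.30 (0.27 to 0.33) in LM2 and 0.42 (0.38 to 0.45) in the parental line. This was the best covered exon of the 3, with 294 inclusion and 610 exclusion reads in LM2, beside 409 and 526 in the parental line. Inclusion reads made up 32.5% in LM2 (exact 95% interval 29.5 to 35.7) and 43.7% (40.5 to 47.0) in parental cells. DCAF16, a substrate receptor of a ubiquitin ligase, had a 156-nt exon at 0.31 (0.25 to 0.38) in LM2 and 0.18 (0.14 to 0.22) in the parental line, with 10 exclusion reads in LM2 and 45 in the parental line. ZEB1, a transcription factor of the epithelial-mesenchymal transition, had a 121-nt exon at 0.26 (0.16 to 0.39) in LM2 and 0.07 (0.04 to 0.12) in the parental line. The ZEB1 exon had 19 inclusion reads in LM2 and 11 in the parental line, with 1 exclusion read in each. Its read-based levels were 0.905 in LM2 and 0.846 in parental cells, and the exact 95% intervals of the share of inclusion reads overlapped, at 75.1 to 99.9% in LM2 and 61.5 to 99.8% in the parental line.

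By gene group, few unannotated exons were called, and each group had few of them. Of 57 exons compared in chromatin and transcription genes, 1 was higher, in ZNF148, and 0 were lower, beside 9 higher and 3 lower of all 889 exons compared in those genes. Of 26 in membrane traffic genes, 0 were higher and 1 was lower, in VPS37A, beside 10 and 4 of 660. None was called of 11 in RNA splicing and binding genes, beside 4 higher and 1 lower of all 384 exons there. None was called of 14 in cytoskeleton and adhesion genes, beside 9 and 4 of 499, or of 8 in cell death, DNA repair and cancer-linked genes, beside 4 and 0 of 271. With so few exons in a group, 0 calls stand near the shares over all exons. The median difference lay between -0.01 and 0.01 in each of the 5 groups. BCL2L1, the apoptosis regulator BCL-X, had a 157-nt intronic exon at 0.07 (0.05 to 0.08) in LM2 and 0.03 (0.02 to 0.04) in the parental line. The 2 deposited intervals did not overlap and the deposited Bayes factor was 1748.51, past the cut of 10. The exon was not called because the difference was below 0.1. That exon had 73 inclusion and 266 exclusion reads in LM2, beside 33 and 179 in the parental line. Inclusion reads made up 21.5% in LM2 (exact 95% interval 17.3 to 26.3) and 15.6% (11 to 21.2) in parental cells, and these intervals overlapped. HNRNPH3, an hnRNP, had a 167-nt exon that ends 6 nt before the annotated one, at 0.99 in each line with no exclusion reads. ITGB1BP1, an integrin-binding adaptor, had a 136-nt exon at 0.98 in LM2 and 0.96 in parental cells. No unannotated exon of the epithelial, mesenchymal, lung or immune marker genes chosen could be compared.

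In sequence length and frame the exons stood as follows. Unannotated exons had a median length of 124 nt, against 118 nt for annotated ones, and ranged up to 4407 nt in SAYSD1. A length divisible by 3 was found in 35.8% of unannotated and 41.6% of annotated exons. Introns on either side had medians of 2417 nt upstream and 2400 nt downstream, against 2240 and 2087 nt for annotated exons. Around intronic exons these were 3515 and 3555 nt.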

How the data were processed

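Total RNA of 4 samples, 2 of each line, was sequenced from ScriptSeq v2 libraries, per the labels' protocols. STAR 2.7 and hg38 are per the submitters' processing notes. The file names and headers give MISO; no source used here gives its version, settings, event annotation or the pooling of replicates. Each deposited level is a fraction (posterior mean with an interval of unstated level). The deposited read counts per event are raw, in 4 classes. In the authors' deposited comparison the difference is a score, equal to LM2 minus parental level in every event, and the Bayes factor is a ratio.

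Exons were matched to GENCODE 29, and each was represented by its event with most informative reads. Kinds of exon were assigned on the same strand, and code was checked on simulated cases. For the read-based level, inclusion reads were first divided by 2 whatever the length of the exon, and the level is their share of the sum with exclusion reads. Intervals of read shares are exact Clopper-Pearson, which treats reads as independent. Bases came from GENCODE transcripts placed by their exons, so exons clear of annotated ones have none here, and windows on 1 chromosome are not shown. All 10 called exons, the 5 best covered, the 2 best covered per kind with levels of 0.1 to 0.9 and up to 3 per gene list were candidates for naming, and not all are described; 1 of them is not reported here. Other named exons were chosen after their values were seen. The members and lists were chosen with earlier results of these data known. Analyses used Python 3.11.15, pandas 2.3.3 and SciPy 1.17.1.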

Additional observations from a re-analysis of the deposited data

How the results depend on the processing

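No paired analysis was possible because each line has 1 set of values, and no replicate could be left out. The median difference was 0 under each alternative that recomputed it, which the alternatives of the call rule alone did not. Against 8 higher and 2 lower exons, a minimum of 20 reads gave 7 and 1. A minimum of 50 reads gave 4 and 1, with 2 of these borne out by reads. Median levels at that minimum were 0.23 in LM2 and 0.22 in parental cells. A Bayes factor of 20 left 1 lower exon. With the read-based difference in place of the deposited one, 6 were higher and 0 lower. Only exons with neither end annotated gave 1 higher and 0 lower, 1 of them borne out by reads (6 of 10 in the main count), and medians of 0.05 in each line. Leaving out exons inside an annotated one, chosen after seeing the data, gave 3 higher and 0 lower, all 3 borne out by reads, and medians of 0.09 in each line. Read-based medians were 0.313 in LM2 and 0.324 in parental cells. The cause of these shifts was not tested. At this depth a lower library of 10 reads leaves wide intervals, such as 0.28 to 0.76 for VPS37A in LM2.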
